A study of Homo sapiens with 8 samples.

Results

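The comparison set cells carrying a SUN2 that lacks its lamin-binding region (LBD) against SUN2 knockout cells (SUN2KO). It asked where LBD moved against the knockout's expression changes, where it went further, and where it differed from SUN2KO without a called knockout change. Its members were chosen by their labels: the 2 LBD and the 2 SUN2KO libraries, 4 of the 8 in the study, read against the 2 libraries of unmodified cells (WT). All libraries came from MDA-MB-231, an established human triple-negative breast cancer line of mesenchymal appearance. LBD cells had a SUN2 lacking residues 1 to 139, which the study made to cut the protein off from the lamin network. SUN2KO cells had SUN2 knocked out and WT cells were unmodified. The remaining group of 2 libraries (Kashlid) had a SUN2 lacking residues 569 to 585, made to cut off Nesprin-2G, and is used here only where named. The labels name no treatment. They do not say by which method each line was made, whether it is 1 clone, and whether the truncated protein stands in place of the cell's own SUN2 or was put into knockout cells.

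SUN2 is a protein of the inner nuclear membrane. Its nucleoplasmic end meets the lamins and its end in the perinuclear space binds the KASH tails of nesprins in the outer membrane, so that together they form the LINC complex, which couples the cytoskeleton to the nucleus. In adherent cells the complex is known for passing mechanical force to the nucleus and for positioning it.

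The libraries held 16570099 to 18814795 counts, and 14016 genes of 25369 were kept after low counts had been filtered out. Of 10 genes expected to be high in this line, all were detected, with VIM at 333 and 341 CPM in LBD, 302 and 297 CPM in SUN2KO, and 399.8 and 408 CPM in WT. CPM is a gene's count scaled to the library's total, corrected by TMM factors. TWIST1 was the lowest of the 10, at 2.99 to 5.35 CPM over the 8 libraries. ESR1, the oestrogen receptor gene that triple-negative cells lack, was at most 0.913 CPM in the 8 libraries. PGR was at most 0.0594 CPM. Other luminal markers examined were expressed, with KRT8 at 1024 to 1657 CPM, KRT18 at 443 to 702 CPM, ERBB2 at 47.8 to 57.9 CPM and FOXA1 at 11.1 to 21.5 CPM. The RNAs RMRP and RPPH1, which have no poly(A) tail and therefore mark how RNA was selected, differed between the LBD libraries. RMRP had 0.463 CPM in LBD replicate 1 and 10.8 CPM in LBD replicate 2, against at most 0.86 CPM in SUN2KO. RPPH1 had 0.231 CPM in LBD replicate 1 and 10.2 CPM in LBD replicate 2, against at most 0.698 CPM in SUN2KO. The part of this difference in the results was not tested.

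SUN2 itself (chromosome 22, 39130719 to 39151467 on hg19) was measured first. It had 32.5 and 34.6 CPM in LBD, 25.6 and 30.3 CPM in SUN2KO, and 83.7 and 81.9 CPM in WT. Both lines were below WT in every library, and LBD was above SUN2KO in both libraries. The LBD minus SUN2KO difference was 0.26 ± 0.09 (log2 fold change ± SE), with adjusted p = 0.0501 by edgeR's quasi-likelihood test with Benjamini-Hochberg adjustment, the test used throughout at a threshold of 0.05. That missed the threshold. It passed without SUN2KO replicate 2 (0.39, adjusted p = 0.0228) and was 0.14 without SUN2KO replicate 1 (adjusted p = 0.491). Counts per gene cannot show whether a transcript carries the truncation, so the level of SUN2 does not check which protein the LBD cells made.

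The promoters of 4 genes are shown because they belong to gene lists on which the results turn, interferon-stimulated genes and chaperones of the endoplasmic reticulum (ER). Each window runs from 250 bases before to 50 after the RefSeq start on GRCh38.p14, 5′ to 3′ on the gene's strand. In RSAD2 and IFI44L capitals mark GAAA, any 2 bases and GAAA, a core of the element bound by interferon-activated factors. In HSPA5 and HSP90B1 they mark CCAAT, any 9 bases and CCACG, the ER stress response element. Both strands were searched.
RSAD2 (GRCh38.p14, chr2:6877527-6877826, plus strand): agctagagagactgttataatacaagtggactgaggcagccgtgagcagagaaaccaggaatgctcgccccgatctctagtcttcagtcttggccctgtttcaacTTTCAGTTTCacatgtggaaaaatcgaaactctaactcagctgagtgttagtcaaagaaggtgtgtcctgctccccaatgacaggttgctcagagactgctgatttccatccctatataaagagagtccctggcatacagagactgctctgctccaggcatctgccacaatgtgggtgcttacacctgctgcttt
IFI44L (GRCh38.p14, chr1:78620198-78620497, plus strand): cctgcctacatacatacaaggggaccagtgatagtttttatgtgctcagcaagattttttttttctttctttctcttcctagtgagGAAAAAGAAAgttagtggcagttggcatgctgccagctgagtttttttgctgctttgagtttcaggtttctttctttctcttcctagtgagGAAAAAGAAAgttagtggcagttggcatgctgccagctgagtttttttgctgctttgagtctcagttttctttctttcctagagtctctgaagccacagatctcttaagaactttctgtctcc
HSPA5 (GRCh38.p14, chr9:125241294-125241593, minus strand): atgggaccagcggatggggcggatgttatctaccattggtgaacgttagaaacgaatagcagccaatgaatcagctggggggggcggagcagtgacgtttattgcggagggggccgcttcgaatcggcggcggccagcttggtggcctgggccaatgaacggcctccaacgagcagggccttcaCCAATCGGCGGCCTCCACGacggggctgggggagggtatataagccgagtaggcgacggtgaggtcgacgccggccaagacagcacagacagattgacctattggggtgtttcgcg
HSP90B1 (GRCh38.p14, chr12:103930160-103930459, plus strand): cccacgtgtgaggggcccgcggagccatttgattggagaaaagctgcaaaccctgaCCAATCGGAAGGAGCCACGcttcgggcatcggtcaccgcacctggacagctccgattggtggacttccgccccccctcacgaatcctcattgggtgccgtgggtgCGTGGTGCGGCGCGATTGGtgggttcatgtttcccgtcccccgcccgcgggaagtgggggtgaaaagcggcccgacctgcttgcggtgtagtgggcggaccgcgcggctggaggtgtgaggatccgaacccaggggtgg

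RSAD2 held 1 match on the opposite strand at bases -145 to -136 from its start. IFI44L held 2, at -164 to -155 and -73 to -64. HSPA5 held 1 match at -66 to -48. HSP90B1 held 2, at -194 to -176 and, on the opposite strand, at -89 to -71. The promoters shown were picked after the matches were seen. In each of the 2 lists they belong to the called members with a match and the largest LBD minus SUN2KO differences. The interferon motif was found in 24 of the 33 interferon-stimulated genes with a promoter in the table (72.7%), and in 15 of the 20 among them that differed between LBD and SUN2KO. Over all 27305 genes with a promoter, 1195 held it (4.38%). The ER element was found in 7 of 19 ER chaperones (36.8%), 6 of them among the 16 that differed, against 25 of all 27305 genes (0.0916%). For cholesterol synthesis genes the sterol element ATCAC, any base and CCAC was searched too, and 1 of 18 promoters held it (5.56%), against 52 of all 27305 genes (0.19%). A match is a description of these letters and was not tested as a binding site.

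Between LBD and SUN2KO 1890 genes were called, 938 higher and 952 lower in LBD, which is 13.5% of the genes tested (6.69% higher and 6.79% lower). With library size alone as the scaling the split was 1128 higher and 718 lower. Of the 1890 genes, 290 differed by at least 2-fold (2.07% of genes tested). The number rests on every library of the pair but LBD replicate 1: it was 884 without LBD replicate 2, 885 without SUN2KO replicate 1 and 1097 without SUN2KO replicate 2. No label says that the 2 libraries of a group are separate cultures. The p-values therefore measure no more than how these libraries differ, and that spread could be technical. In bulk RNA a smaller share of cells that express a gene and less RNA per cell cannot be told apart.

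Each of the 1890 genes was placed by its change in SUN2KO against WT, where 5137 genes were called (36.7%, with 17.5% higher and 19.1% lower). LBD against WT had 5611 called genes (40%), 813 of them by at least 2-fold (5.8%). In 711 genes LBD differed from SUN2KO against the direction of the knockout change (376 higher and 335 lower in LBD, 5.07% of genes tested). These are named returned, which includes genes that passed WT. Some of those ended farther from WT than SUN2KO was, such as IFIT2 (LBD minus WT 2.12, SUN2KO minus WT -0.23). In 302 genes LBD went further in the direction of the knockout (123 higher and 179 lower, 2.15%). The other 877 differed between LBD and SUN2KO without a call in SUN2KO against WT (439 higher and 438 lower, 6.26%). These are named new, although a missing call does not show that SUN2KO and WT were alike there. Nor does the name say that Kashlid lacked the change. The median size of the LBD minus SUN2KO difference was 0.38 (log2) among genes that returned, 0.35 among those that went further and 0.38 among new ones.

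Most knockout changes were not called between LBD and SUN2KO, which does not show that they were the same in both lines. Of the 5137 knockout changes 13.8% returned, 5.88% went further and 4124 (80.3%) were not called between LBD and SUN2KO. Of these 4124 genes, 3174 were called between LBD and WT (77%) and 950 were not (23%). Genes lower in SUN2KO returned in 14% of cases (376 of 2682) and genes higher in SUN2KO in 13.6% (335 of 2455). Among the 630 knockout changes of at least 2-fold (4.49% of genes tested), 112 returned (17.8%), 37 went further (5.87%) and 481 were not called (76.3%). For comparison, 9.88% of the 8879 genes with no knockout call were called between LBD and SUN2KO.

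Of the 711 genes that returned, 463 were not called between LBD and WT. A further 157 were still called on the knockout side of WT, and 91 were called on the other side of WT. All 302 genes that went further were called between LBD and WT, which their definition favours, as were 679 of the 877 new genes. The SUN2KO libraries enter the LBD minus SUN2KO and the SUN2KO minus WT differences with opposite sign, so chance error in them adds to the number that returns and takes from the number that goes further. With 1 knockout library set against WT and the other against LBD, 305 genes returned and 127 went further (8.44% and 3.52% of 3612 knockout changes, with 6.15% of genes called between LBD and SUN2KO). With the knockout libraries exchanged, 324 returned and 160 went further (8.95% and 4.42% of 3620, with 7.63% called). Genes that returned outnumbered those that went further in both settings. Leaving out SUN2KO replicate 1 gave 330 returned, 111 further and 444 new. Leaving out SUN2KO replicate 2 gave 386, 138 and 573, and leaving out LBD replicate 2 gave 364, 163 and 357. Without WT replicate 1 there were 196 further.

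**Figure D1:**
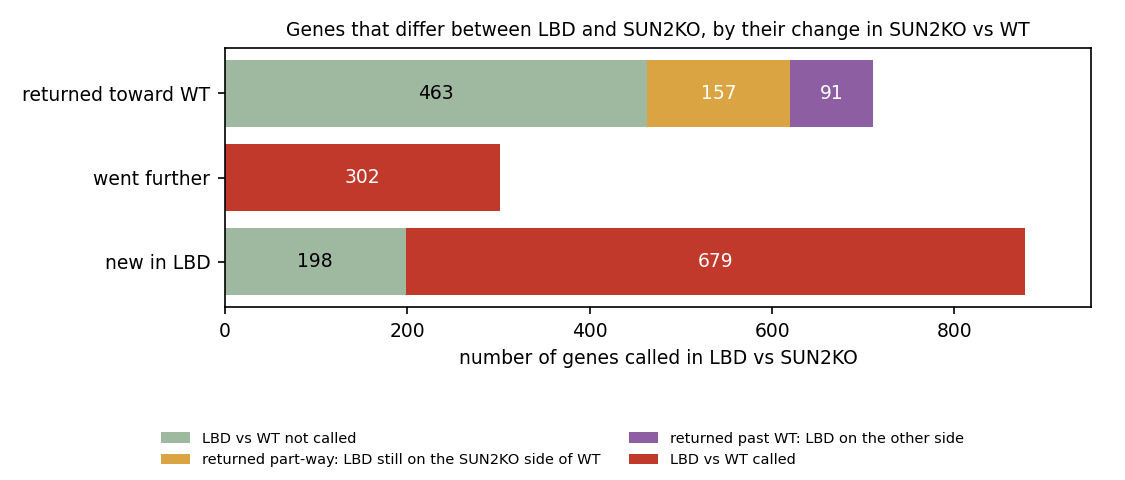
Number of genes called between LBD and SUN2KO (horizontal axis) in the 3 classes set by the change in SUN2KO against WT (vertical axis), with bars divided by where LBD stood against WT. Of the 711 genes that returned, 463 were not called against WT, 157 stayed on the knockout side and 91 passed to the other side.

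Of the lists examined, chaperones and folding enzymes of the ER had the largest share of returning genes. They fold and modify secreted and membrane proteins and are induced together by the unfolded protein response. Of 20 tested, 17 were higher in LBD than in SUN2KO and 3 did not pass (85% called, against 13.5% of all genes), with a median difference of 0.44 (log2) against -0.00 over all genes. In SUN2KO 19 of the 20 were lower than in WT, with a median of -0.40, and 16 of these returned. Against WT the LBD median was -0.05, and 4 of the 20 were higher and 4 lower. The count of 17 lay between 16 and 18 in the other settings tried, apart from the 2-fold limit, which none of the 20 passed.

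HSPA5 (chromosome 9, 127997127 to 128003666), the main ATP-driven chaperone of the ER lumen, had 2181 and 2166 CPM in LBD, 1284 and 1237 CPM in SUN2KO, and 2061 and 1974 CPM in WT. Both LBD libraries were above all SUN2KO and WT libraries, and SUN2KO stood apart below. The LBD minus SUN2KO difference was 0.79 ± 0.05 (edgeR adjusted p = 1.59e-10), and LBD minus WT was 0.11 ± 0.05 (edgeR adjusted p = 0.0775). PDIA4, a disulfide isomerase, had 472 and 461 CPM in LBD, 276 and 267 CPM in SUN2KO, and 481 and 466 CPM in WT. Its LBD libraries overlapped WT and lay 0.78 ± 0.05 above SUN2KO (edgeR adjusted p = 2.96e-10).

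DNAJC3, a co-chaperone that also restrains the kinase PERK, returned part of the way. It had 83.1 and 80.6 CPM in LBD, 52.0 and 48.3 CPM in SUN2KO, and 111 and 107 CPM in WT, with no overlap between groups. LBD was 0.71 ± 0.06 above SUN2KO and 0.41 below WT (LBD minus WT -0.41 ± 0.06, edgeR adjusted p = 1.74e-05). HERPUD1, an adaptor of ER-associated degradation, passed WT, with 119 and 116 CPM in LBD, 71.5 and 65.0 CPM in SUN2KO, and 94.6 and 99.1 CPM in WT. HSP90B1, the ER member of the HSP90 family, had 1162 and 1186 CPM in LBD, 816 and 790.1 CPM in SUN2KO, and 1502 and 1481 CPM in WT, so that LBD lay between the other groups. The members of the list thus differed in how far they returned. Of the 16, 10 were not called against WT, 3 were beyond it and 3 remained on the knockout side. Of 24 targets of ATF4, a transcription factor of another arm of the stress response, 2 were higher and 2 lower in LBD than in SUN2KO. That is 16.7% called, near the 13.5% of all genes. These calls were lost without any 1 of the LBD or SUN2KO libraries. The lower count was not stable the other way either, at 6 in the fit without Kashlid and 7 with genes unfiltered.

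**Figure D2:**
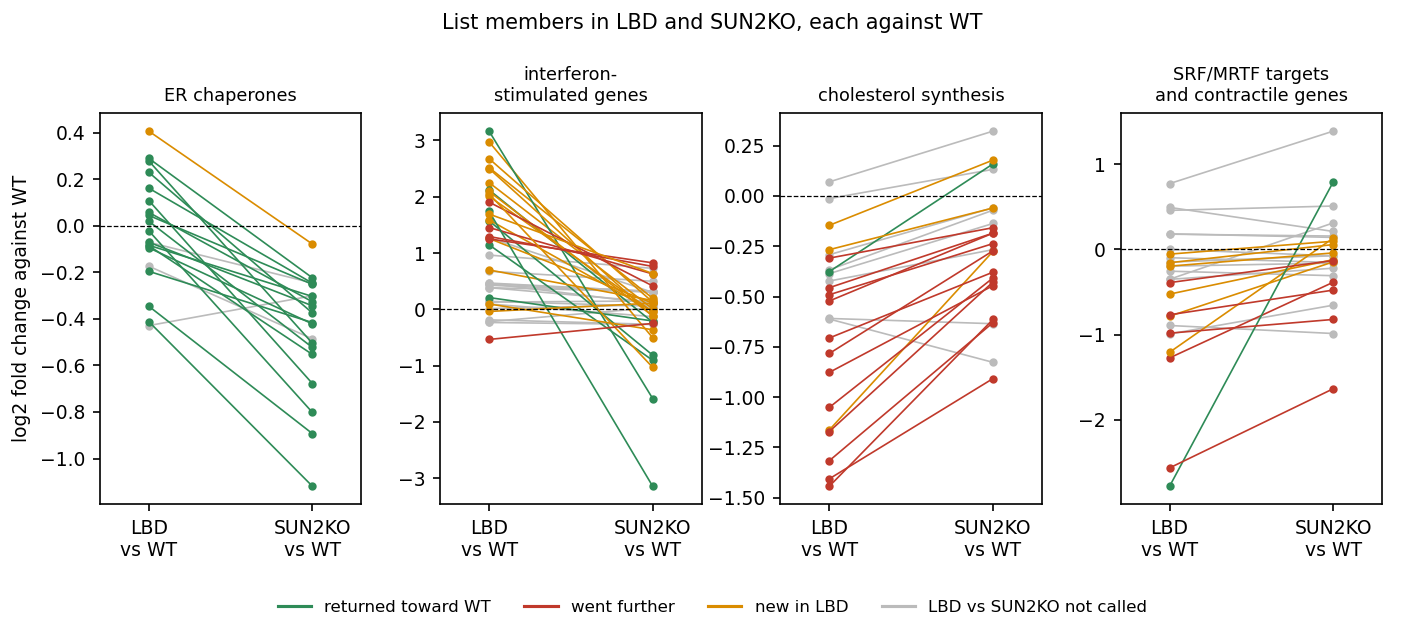
Log2 fold change against WT (vertical axis) of each tested member of 4 gene lists in LBD (left) and SUN2KO (right), joined by a line and coloured by class. ER chaperones sit below 0 in SUN2KO and near 0 in LBD, interferon-stimulated genes are high in LBD, and cholesterol synthesis and contractile genes lie lower in LBD than in SUN2KO.

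Genes of the extracellular matrix returned in part. Of 34 collagens and matrix glycoproteins tested, 16 were higher and 5 lower in LBD than in SUN2KO (61.8% called), with a median difference of 0.21 (log2), where SUN2KO had 8 higher and 15 lower than WT. Of the 34, 13 returned, 3 went further and 5 were new. Fibronectin, FN1 (chromosome 2, 216225179 to 216300791), the main adhesive glycoprotein of the provisional matrix, had 775 and 859 CPM in LBD, 295 and 292 CPM in SUN2KO, and 795 and 849 CPM in WT. The LBD values enclosed those of WT, and SUN2KO lay apart at 2.79-fold lower than LBD (1.48 ± 0.05, edgeR adjusted p = 2e-14). LBD minus WT was -0.01 ± 0.05. The proteoglycan gene DCN rose past WT, with 15.4 and 15.7 CPM in LBD, 6.55 and 6.82 CPM in SUN2KO, and 12.2 CPM in each WT library.

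Other matrix genes did not follow fibronectin. COL5A3, a minor fibrillar collagen chain, went further. It had 12.4 and 12.6 CPM in LBD, 2.71 and 3.06 CPM in SUN2KO, and 0.594 and 0.568 CPM in WT, so the groups form 3 separate steps (LBD minus SUN2KO 2.12 ± 0.17, edgeR adjusted p = 2.27e-08). COL8A1, a short-chain collagen, was new in LBD at 5.67 and 4.90 CPM, against 1.03 and 0.86 CPM in SUN2KO and 1.72 and 1.31 CPM in WT. Among matrix proteases and their inhibitors 8 of 23 were higher and 2 lower in LBD (43.5% called, against 13.5% of all genes). MMP24, a membrane-bound metalloprotease, returned from above, with 5.67 and 5.20 CPM in LBD, 14.4 and 11.9 CPM in SUN2KO, and 4.99 and 6.87 CPM in WT (LBD minus SUN2KO -1.27 ± 0.18, edgeR adjusted p = 4.04e-05).

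Of 21 chemokine and NF-kB target genes tested, 12 were higher in LBD than in SUN2KO and 9 did not pass (57.1% called, median 0.53), while 3 were higher and 8 lower in SUN2KO than in WT. Of the 12, 8 had been lower in SUN2KO than in WT, and 7 of these ended above WT. CCL5 (chromosome 17, 34198496 to 34207377), a chemokine for T cells and monocytes, had 38.1 and 49.8 CPM in LBD, 3.90 and 3.81 CPM in SUN2KO, and 15.5 and 17.3 CPM in WT. The 3 groups did not overlap, and LBD was 11.4-fold above SUN2KO (3.51 ± 0.14, edgeR adjusted p = 2.32e-13) and 1.42 ± 0.12 above WT.

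CXCL10 and CXCL11, ligands of the receptor CXCR3, were nearly absent from the knockout. CXCL10 had 68 counts over the LBD libraries and 1 over those of SUN2KO, a ratio of 74.2 after scaling (95% counting interval 12.9 to 2971). CXCL11 had 92 counts in LBD and 2 in SUN2KO, a ratio of 50.2 (13.5 to 420.4). These intervals cover counting error only. The WT libraries together had 16 counts of CXCL10 and 26 of CXCL11, so that for both genes LBD was above and SUN2KO below WT. CXCL8, a neutrophil chemokine, had 21.6 and 28.0 CPM in LBD, 7.47 and 4.89 CPM in SUN2KO, and 11.6 and 11.5 CPM in WT. It was higher in LBD than in SUN2KO (2.0 ± 0.40, edgeR adjusted p = 0.00141), but not past the threshold without SUN2KO replicate 2 (edgeR adjusted p = 0.0539).

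Type I interferon-stimulated genes were higher in LBD, most of them as changes new in LBD. They encode antiviral effectors and sensors and are transcribed after interferon signalling or after sensing of nucleic acids. Of 41 tested (44 listed), 23 were higher, 2 were lower and 16 did not pass between LBD and SUN2KO (61% called), with a median difference of 0.53 (log2). Of the 25 called, 14 were new, 5 went further and 6 returned, and each of the 6 ended beyond WT. In SUN2KO 8 of the 41 were higher and 7 lower than in WT, whereas in LBD 29 were higher and 1 lower, with medians of 0.08 and 1.15. The summed level of the list was 2709 and 2869 CPM in LBD, 1893 and 1912 CPM in SUN2KO, and 1836 and 1891 CPM in WT. The count of 23 lay between 20 and 23 in the other settings and was 17 with a 2-fold limit.

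OASL (chromosome 12, 121458095 to 121477045), a protein related to the oligoadenylate synthetases that strengthens RNA sensing, had 263 and 304 CPM in LBD, 47.7 and 49.3 CPM in SUN2KO, and 43.3 and 45.3 CPM in WT. Its LBD libraries stood apart, 5.84-fold above SUN2KO (2.55 ± 0.07, edgeR adjusted p = 6.49e-16), and SUN2KO minus WT was 0.13 ± 0.08 (edgeR adjusted p = 0.207). ISG15, a ubiquitin-like modifier, had 151 and 209 CPM in LBD, 35.7 and 36.4 CPM in SUN2KO, and 29.3 and 33.5 CPM in WT (2.32 ± 0.11, edgeR adjusted p = 2.52e-12). IFI44L, whose promoter is shown above, had 15.1 and 15.9 CPM in LBD, 1.73 and 3.28 CPM in SUN2KO, and 2.79 and 2.67 CPM in WT. In all 3 genes SUN2KO and WT lay close together and LBD was several times higher.

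In the 6 that returned, IFIT2, IFIT3, OAS2, OAS3, DDX60 and RSAD2, SUN2KO was lowest and LBD highest in every library. RSAD2, the antiviral enzyme viperin, had 8.45 and 7.89 CPM in LBD, 0.216 and 0.322 CPM in SUN2KO, and 2.44 CPM in each WT library (LBD minus SUN2KO 4.88 ± 0.30, edgeR adjusted p = 1.86e-10). OAS2, an oligoadenylate synthetase that activates RNase L, had 17.3 and 19.4 CPM in LBD, 0.595 and 0.752 CPM in SUN2KO, and 2.67 and 1.42 CPM in WT (4.75 ± 0.24, edgeR adjusted p = 8.23e-12). HERC5, the ligase that attaches ISG15, was also higher in SUN2KO than in WT and went further, with 90.6 and 100.2 CPM in LBD, 33.3 and 34.7 CPM in SUN2KO, and 25.2 and 25.7 CPM in WT. The list was not uniform. STAT2, a transcription factor of the pathway, differed by 0.09 between LBD and SUN2KO and did not pass. The membrane tether BST2 was lower in LBD (232 and 239 CPM) than in SUN2KO (285 and 289 CPM). BST2 and STAT2 were named after their values were seen.

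**Figure D3:**
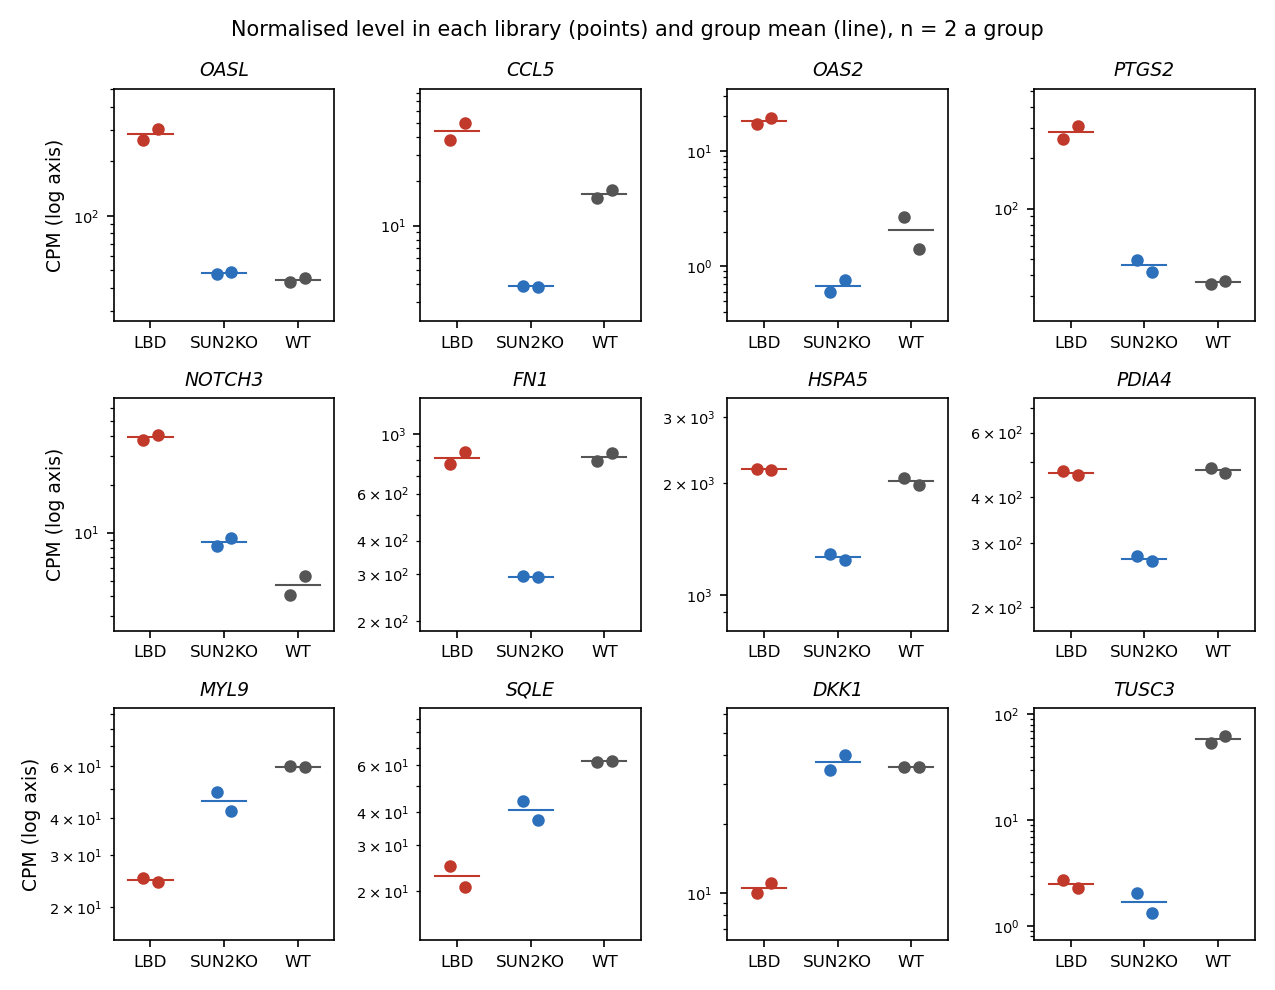
Normalised level (CPM, log axis) of 12 genes in each of the LBD, SUN2KO and WT libraries (points), with the group mean as a line, n = 2 a group. OASL, CCL5, OAS2, PTGS2 and NOTCH3 are highest in LBD, FN1, HSPA5 and PDIA4 are low in SUN2KO alone, MYL9, SQLE and DKK1 are lowest in LBD, and TUSC3 is low in both lines.

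Among genes averaging 5 CPM or more, PTGS2 and NOTCH3 had the largest increases of those that went further. PTGS2 (chromosome 1, 186640944 to 186649559), the inducible cyclooxygenase of prostaglandin synthesis, had 260.4 and 308 CPM in LBD, 49.7 and 42.1 CPM in SUN2KO, and 35.7 and 37.0 CPM in WT. LBD was 6.19-fold above SUN2KO (2.63 ± 0.11, edgeR adjusted p = 6e-13), while the step of SUN2KO over WT was 0.34 ± 0.13 (edgeR adjusted p = 0.0432), close to the threshold. NOTCH3 (chromosome 19, 15270444 to 15311792), a receptor for Delta and Jagged ligands, had 37.9 and 41.1 CPM in LBD, 8.28 and 9.30 CPM in SUN2KO, and 4.10 and 5.34 CPM in WT (LBD minus SUN2KO 2.17 ± 0.12, edgeR adjusted p = 1.83e-11). The groups did not overlap in either gene.

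Neither gene took its whole pathway along. Of the prostaglandin list 50% was called and of the Notch list 26.3%, against 13.5% of all genes. Of 12 prostaglandin genes 4 were higher and 2 lower in LBD than in SUN2KO. PLA2G4A, the phospholipase that frees arachidonic acid, had 91.4 and 85.7 CPM in LBD, 42.3 and 41.5 CPM in SUN2KO, and 56.6 and 54.5 CPM in WT, and so passed from below to above WT. The constitutive cyclooxygenase PTGS1 moved the other way, with 79.8 and 88.2 CPM in LBD, 121 and 119 CPM in SUN2KO, and 18.8 and 26.0 CPM in WT. Of 19 Notch pathway genes 4 were higher and 1 lower (2 higher without LBD replicate 2 or SUN2KO replicate 1). The Notch ligand JAG1 returned part of the way, with 29.1 and 25.6 CPM in LBD, 16.2 and 16.3 CPM in SUN2KO, and 35.0 and 39.0 CPM in WT.

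Cholesterol synthesis genes went further downward. The enzymes of this pathway are controlled together by SREBP2 according to membrane sterol. Of 24 tested, 16 were lower in LBD than in SUN2KO and 8 did not pass (66.7% called), with a median difference of -0.31 (log2). In SUN2KO 15 were already lower than in WT and 1 was higher, with a median of -0.25, and in LBD 21 were lower, with a median of -0.51. Of the 16, 12 went further, 3 were new and 1 returned. The count of 16 lay between 11 and 17 in the other settings, and none passed a 2-fold limit.

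SQLE, squalene epoxidase, had 25.0 and 20.7 CPM in LBD, 44.0 and 37.1 CPM in SUN2KO, and 61.9 and 62.3 CPM in WT. MSMO1, a sterol C4 oxidase, had 34.7 and 31.5 CPM in LBD, 56.0 and 54.9 CPM in SUN2KO, and 72.7 and 76.5 CPM in WT. IDI1, which isomerises the isoprenoid building block, had 25.0 and 22.7 CPM in LBD, 39.1 and 37.6 CPM in SUN2KO, and 60.0 and 58.7 CPM in WT. All 3 formed the same descending steps without overlap, with LBD minus SUN2KO of -0.83 ± 0.10, -0.74 ± 0.08 and -0.69 ± 0.09 (edgeR adjusted p at most 2.27e-05). MVK, mevalonate kinase, was lower by more (-0.89 ± 0.14, edgeR adjusted p = 0.000127), but its SUN2KO change against WT was not called.

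**Figure D4:**
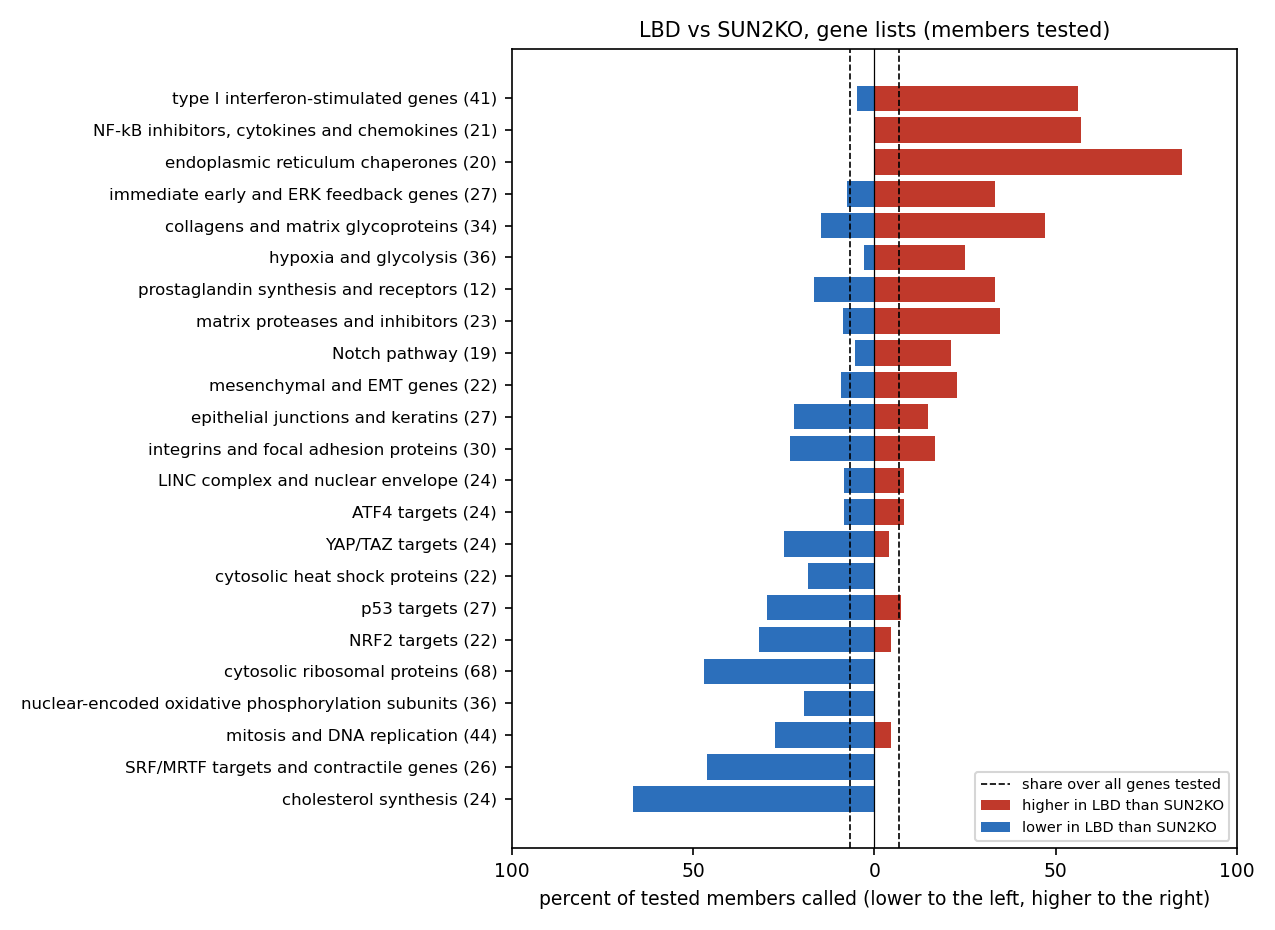
Percent of tested members called higher (right) or lower (left) in LBD than in SUN2KO for 23 gene lists, with the number tested in brackets and dashed lines at the share over all genes (6.69% higher and 6.79% lower). The lists are in order of their median difference, with interferon-stimulated genes, NF-kB targets and ER chaperones at the top and contractile and cholesterol synthesis genes at the bottom.

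Contractile genes were lower in LBD as well. Of 26 targets of the factors SRF and MRTF and other contractile genes, 12 were lower in LBD than in SUN2KO and 14 did not pass (46.2% called, median -0.16). The count was 7 without LBD replicate 1 and 7 without SUN2KO replicate 1. Of the 12, 5 went further, 6 were new and 1 returned. MYL9, a regulatory light chain of non-muscle myosin, had 25.0 and 24.3 CPM in LBD, 49.0 and 42.4 CPM in SUN2KO, and 60.0 and 59.3 CPM in WT (LBD minus SUN2KO -0.89 ± 0.09, edgeR adjusted p = 3.27e-07). NEXN, an actin-binding protein, had 4.28 and 4.18 CPM in LBD, 7.90 and 8.22 CPM in SUN2KO, and 24.3 and 25.7 CPM in WT. LBD was the lowest of the groups in both.

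MYLK3, a myosin light chain kinase known mainly from heart muscle, crossed WT. It had 2.08 and 1.02 CPM in LBD, 18.6 and 18.5 CPM in SUN2KO, and 9.99 and 11.4 CPM in WT, so LBD was 11.8-fold below SUN2KO (-3.57 ± 0.21, edgeR adjusted p = 1.19e-10). The related kinase gene MYLK had 3.24 and 2.57 CPM in LBD, 7.36 CPM in each SUN2KO library, and 5.05 and 8.35 CPM in WT. The actin genes ACTB and ACTG1, named after their values were seen, differed by -0.07 and -0.05 between LBD and SUN2KO and did not pass. Of 24 YAP/TAZ target genes 6 were lower and 1 higher in LBD (2 lower without SUN2KO replicate 1). The share called in that list was 29.2%, against 13.5% of all genes. Its higher gene was NT5E, an ectonucleotidase, with 47.9 and 57.8 CPM in LBD, 20.5 and 17.9 CPM in SUN2KO, and 23.6 and 31.1 CPM in WT.

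Among other genes that crossed WT downward, PZP, a protease-binding plasma protein related to alpha-2-macroglobulin, had 0.521 and 0.359 CPM in LBD, 14.4 and 15.4 CPM in SUN2KO, and 6.66 and 3.01 CPM in WT (-5.06 ± 0.35, edgeR adjusted p = 1.42e-09). WISP2, a secreted CCN family protein, had 34.2 and 40.8 CPM in LBD, 124 and 134 CPM in SUN2KO, and 76.5 and 86.4 CPM in WT. ALPP, placental alkaline phosphatase, had 77.3 and 77.4 CPM in LBD, 261 and 244 CPM in SUN2KO, and 207 and 186 CPM in WT. In each the knockout was highest and LBD lowest, without overlap. ALPP has a near-identical paralog, so its counts are uncertain. SPINK6, an inhibitor of kallikreins, ran the other way, with 13.4 and 14.9 CPM in LBD, 2.54 and 2.69 CPM in SUN2KO, and 5.94 and 5.34 CPM in WT. STC1, a secreted glycoprotein hormone, returned part of the way and varied within groups, with 3.53 and 18.8 CPM in LBD, 0.162 and 1.02 CPM in SUN2KO, and 44.9 and 56.6 CPM in WT.

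Among genes averaging 5 CPM or more, the largest decreases of those that went further lay at low levels. CGA, the common alpha chain of glycoprotein hormones, had 2.02 and 1.38 CPM in LBD, 7.58 and 4.89 CPM in SUN2KO, and 13.0 and 12.8 CPM in WT. ROR2, a receptor of non-canonical Wnt signalling, had 8.62 and 7.53 CPM in LBD, 18.9 and 21.3 CPM in SUN2KO, and 26.4 and 24.4 CPM in WT. NTRK2, a neurotrophin receptor, fell to 1.74 and 1.79 CPM in LBD, against 3.68 and 4.62 CPM in SUN2KO and 10.3 and 8.07 CPM in WT. VEPH1 behaved alike, with an LBD minus SUN2KO difference of -1.33 ± 0.24 (edgeR adjusted p = 0.000672).

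Of the new decreases, DKK1 (chromosome 10, 54074041 to 54077417), a secreted inhibitor of Wnt signalling, had 10.0 and 11.1 CPM in LBD, 34.3 and 39.8 CPM in SUN2KO, and 35.3 CPM in each WT library. LBD lay below both, 3.52-fold below SUN2KO (-1.81 ± 0.11, edgeR adjusted p = 1.47e-10). Kashlid was lower still, at 5.61 and 5.98 CPM. The transcription factor ATOH8 had 1.74 and 1.67 CPM in LBD, 7.90 and 6.45 CPM in SUN2KO, and 9.87 and 9.71 CPM in WT. ID2, an inhibitor of basic helix-loop-helix factors, had 2.49 and 2.33 CPM in LBD, 5.57 and 6.45 CPM in SUN2KO, and 7.55 and 8.35 CPM in WT. In both the SUN2KO values lay below those of WT although their difference was not called (edgeR adjusted p = 0.0574 and 0.0996).

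Adhesion and epithelial genes were mixed, with 40% and 37% called, against 13.5% of all genes. Of 30 integrins and focal adhesion proteins, 5 were higher and 7 lower in LBD than in SUN2KO (3 lower without LBD replicate 2, and 4 without either SUN2KO library), with a median of -0.02. The 5 higher genes were integrin subunits. ITGA2, the collagen-binding alpha-2 subunit, had 275 and 336 CPM in LBD, 111 and 101 CPM in SUN2KO, and 142 and 158 CPM in WT (1.53 ± 0.08, edgeR adjusted p = 1.1e-11). ITGA5, the fibronectin-binding alpha-5 subunit, was new in LBD at 528 and 627 CPM, against 342 and 355 CPM in SUN2KO and 327 and 365 CPM in WT. Of 27 epithelial junction and keratin genes, 4 were higher and 6 lower (2 to 3 lower without any 1 of the LBD or SUN2KO libraries), and 9 of the 16 knockout changes in the list were not called. KRT17 went further, with 153 and 179 CPM in LBD, 104 and 108 CPM in SUN2KO, and 75.7 and 75.5 CPM in WT. KRT8 returned in part, with 1347 and 1320 CPM in LBD, 1632 and 1657 CPM in SUN2KO, and 1064 and 1024 CPM in WT.

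Ribosomal protein genes moved by small steps, and hypoxia genes differed within LBD. Their shares called were 47.1% and 27.8%, against 13.5% of all genes. Of 68 cytosolic ribosomal protein genes, 32 were lower in LBD than in SUN2KO (median -0.13) and 36 did not pass, and 22 of the 32 returned. That count was 8 without LBD replicate 1, 16 without LBD replicate 2, 11 without SUN2KO replicate 1 and 15 without SUN2KO replicate 2. Ribosomal protein genes have many processed pseudogenes that may share their reads. Of 36 hypoxia and glycolysis genes 9 were higher and 1 lower in LBD, and the higher count was 4 without LBD replicate 2, 17 without LBD replicate 1 and 4 without SUN2KO replicate 1. NDRG1, a hypoxia-induced gene, had 196 and 442 CPM in LBD, 119 and 160 CPM in SUN2KO, and 165 and 252 CPM in WT, so LBD overlapped WT but not SUN2KO. Its call was lost with DESeq2 on all libraries (LBD minus SUN2KO 1.20, DESeq2 adjusted p = 0.15). It was also lost without LBD replicate 2 (0.496) or SUN2KO replicate 1 (0.995).

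Proliferation, stress and metabolic lists showed smaller counts that rest on single libraries. Called were 31.8% of mitosis and DNA replication genes, 37% of p53 targets and 36.4% of NRF2 targets. Immediate early genes had 40.7% called and mesenchymal genes 31.8%. Oxidative phosphorylation subunits (19.4%) and cytosolic heat shock proteins (18.2%) were near the 13.5% of all genes. Mitosis and DNA replication had 12 of 44 lower and 2 higher in LBD, with 4 lower without LBD replicate 2 and 3 without SUN2KO replicate 1. Of 27 p53 targets 8 were lower and 2 higher, with 2 or 3 lower without any 1 of the LBD or SUN2KO libraries. Of 22 NRF2 targets 7 were lower and 1 higher, with 4 lower without LBD replicate 2 or SUN2KO replicate 1. NQO1, an NRF2-driven quinone reductase, had 315 and 290.5 CPM in LBD, 423 and 380.5 CPM in SUN2KO, and 325 and 306 CPM in WT. Of 36 oxidative phosphorylation subunits 7 were lower, and this count was at most 2 without any 1 of the LBD or SUN2KO libraries. Of 22 heat shock proteins of the cytosol 4 were lower. Fewer were lower without LBD replicate 2 or SUN2KO replicate 1, and 7 in the fit without Kashlid and with genes unfiltered. Immediate early and ERK feedback genes had 9 of 27 higher and 2 lower (5 higher without SUN2KO replicate 2). EGR1, the immediate early transcription factor, returned in part from above, with 10.1 CPM in each LBD library, 25.4 and 21.8 CPM in SUN2KO, and 3.57 and 2.33 CPM in WT. Mesenchymal genes had 5 of 22 higher and 2 lower, with 1 higher without LBD replicate 2 or SUN2KO replicate 1 and 2 without SUN2KO replicate 2. Of the lists used to check the cells, 3 of 10 markers high in the line were higher and 1 lower in LBD (40% called). Luminal breast markers had 2 of 10 higher and 2 lower (40% called). Of 11 RNAs listed as lacking a poly(A) tail, 1 was higher and 1 lower (18.2% called, near the 13.5% of all genes). These small counts rest on single libraries. Without LBD replicate 2 or SUN2KO replicate 2, 1 marker of the line was higher, and 1 luminal marker was higher and 1 lower. Without SUN2KO replicate 1, 1 luminal marker was lower. Both calls among the RNAs listed as lacking a tail, TERC higher and HIST1H2BK lower, were lost without any 1 of the LBD or SUN2KO libraries. HIST1H2BK had 117 to 171 CPM in the 8 libraries.

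The LINC complex and nuclear envelope genes, the protein neighbours of SUN2, differed little. Of 24 tested, 2 were higher, 2 lower and 20 did not pass (16.7% called, against 13.5% of all genes). SYNE2, which encodes nesprin-2, the family of Nesprin-2G, had 122 and 111 CPM in LBD, 142 and 148 CPM in SUN2KO, and 106 and 107 CPM in WT, and returned (-0.32 ± 0.06, edgeR adjusted p = 0.000532). SYNE3, nesprin-3, which links to plectin and intermediate filaments, had 5.21 and 4.90 CPM in LBD, 2.76 and 2.63 CPM in SUN2KO, and 1.78 and 1.19 CPM in WT. Its call (0.91 ± 0.23, edgeR adjusted p = 0.0122) was lost without any 1 of the LBD or SUN2KO libraries, at edgeR adjusted p between 0.0543 and 0.0819. TMEM43, an inner nuclear membrane protein, had 194 and 189 CPM in LBD, 160.4 and 154 CPM in SUN2KO, and 137 and 136 CPM in WT. TMPO, which encodes the LAP2 proteins, was lower in LBD (221 and 204 CPM) than in SUN2KO (248 and 244 CPM), a call lost without LBD replicate 2 (edgeR adjusted p = 0.174), SUN2KO replicate 1 (0.0864) or SUN2KO replicate 2 (0.0509).

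Several of the deepest knockout changes were not called between LBD and SUN2KO. The genes given here were chosen after their values were seen. TUSC3, a subunit of the oligosaccharyltransferase, had 2.72 and 2.27 CPM in LBD, 2.06 and 1.34 CPM in SUN2KO, and 54.3 and 63.2 CPM in WT. LBD minus SUN2KO was 0.56 (95% interval 0.01 to 1.10, edgeR adjusted p = 0.184), against a knockout change of -5.11. RCN3, an ER calcium-binding protein, changed by -4.91 in SUN2KO and lay 0.99 above it in LBD (0.01 to 1.97). TC2N, a C2 domain protein, had 18.8 and 21.9 CPM in LBD, 22.9 and 25.9 CPM in SUN2KO, and 2.62 and 2.44 CPM in WT. Its LBD minus SUN2KO difference was -0.27 (-0.49 to -0.04, edgeR adjusted p = 0.127). SRPX2, RNF125, KATNAL2 and OLFM1 had intervals that included 0, the widest reaching from -0.65 to 0.37 in KATNAL2. AKR1C2, whose paralogs may share its reads, differed by 0.19 (-0.04 to 0.43) after a knockout change of 4.31.

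Genes in regions that shifted together in SUN2KO were counted separately. In 48 windows of 5 Mb with at least 15 tested genes, the median SUN2KO minus WT difference lay beyond 0.3 (log2) in size. They held 803 knockout changes, of which 86 returned (10.7%) and 40 went further (4.98%). In the other 294 windows 507 of 3455 knockout changes returned (14.7%) and 202 went further (5.85%). Between LBD and SUN2KO the median size of the window shift was 0.04 in both sets, and no window in either set moved by more than 0.24.

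Kashlid, the other truncation, was set beside LBD for the same genes. Between LBD and Kashlid 408 genes were called (2.91% of those tested), 229 higher (1.63%) and 179 lower in LBD (1.28%), and 16 by at least 2-fold (0.114%). Of the 24 genes named for their class, 18 did not differ past the threshold between the truncations and 6 did. SPINK6 was higher in LBD (13.4 and 14.9 CPM) than in Kashlid (5.67 and 4.40 CPM), a difference of 1.49 ± 0.17 (edgeR adjusted p = 0.000102). DKK1 and ID2 were also higher in LBD than in Kashlid, by 0.86 ± 0.14 and 1.12 ± 0.29, as were ALPP by 0.54 and WISP2 by 0.38. EGR1 was lower in LBD than in Kashlid, where it had 32.3 and 18.4 CPM (-1.33 ± 0.19, edgeR adjusted p = 0.000613). For OASL, CCL5, PTGS2 and NOTCH3 the Kashlid libraries had 249 and 273 CPM, 42.8 and 44.8 CPM, 372 and 269.7 CPM, and 42.7 and 48.0 CPM, within 0.20 (log2) of LBD on average. None of these 4 genes passed between the truncations, and no difference particular to the lamin-binding truncation was shown for them. The same held for IFI44L (16.1 and 20.3 CPM in Kashlid), ISG15 (158 and 182 CPM), MYLK3 (1.68 and 1.58 CPM) and ATOH8 (1.56 and 1.06 CPM).

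The authors' deposited tables compare LBD and SUN2KO with WT and hold no comparison between them. Of the 1013 genes that returned or went further here, 831 had an adjusted p under 0.05 for SUN2KO against WT in the authors' deposited table, among them 594 of the 711 that returned.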

How the data were processed

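RNA sequencing of MDA-MB-231 cells gave 8 libraries, 2 each of LBD, SUN2KO, WT and Kashlid. Per the submitters' processing notes, the authors used Trim Galore, STAR 2.7.1a with hg19, bedtools 2.24.0 and HTSeq. The deposited count values are raw reads per gene. Annotation version and strand setting: not given in the sources used here. Overlapping genes and paralogs may share reads. The deposited tables of the authors' comparisons (log2 fold changes and p-values, with DESeq2 among the tools in the notes) served only as a check, for LBD and SUN2KO against WT (correlation with the values computed here 0.999). The 12 columns of per-library values without names were not used, and 0 entries named no gene. Coordinates are those of the deposited tables.

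The analysis used edgeR 4.0.16 under R 4.3.3: genes kept by filterByExpr, TMM factors, and 1 quasi-likelihood model of the 4 groups on 8 libraries, which leaves 4 residual degrees of freedom. Two-sided p-values were adjusted by Benjamini-Hochberg over all 14016 genes of a comparison. A gene was called at adjusted p under 0.05. Total counts were 17146119 and 16570099 in LBD, 18814795 and 18662262 in SUN2KO, 17115114 and 17779388 in WT, and 17041108 and 16851763 in Kashlid. On simulated data for LBD against SUN2KO (13738 genes), edgeR made 168 calls, 11 of them false. It found 69.1% of the 1.5-fold and 90.9% of the 2-fold changes.

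Named genes were SUN2, the 4 largest LBD minus SUN2KO changes each way in each class among genes averaging 5 CPM or more (unnamed loci, antisense names and pseudogenes passed over), and up to 4 called members of each list. Of these only those that carry a result are described, and a few are not reported here. The members and the 27 gene lists were chosen with earlier results of these data known. Alternatives were library size without factors, median-ratio factors, all genes unfiltered, a filter of 5 CPM in 2 libraries, DESeq2 1.42.0, a fit without Kashlid, a replicate block, leaving out each library, a 2-fold limit, and knockout libraries not shared between comparisons. Promoter windows are RefSeq's on GRCh38.p14.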

Additional observations from a re-analysis of the deposited data

Results flagged for a closer look

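Between LBD and SUN2KO, 91 genes were called on opposite sides of WT: both lines differed from WT, in opposite directions, and differed from each other. Of the genes named for their class, this held for OAS2 (LBD minus SUN2KO 4.75, log2), CCL5 (3.51) and SPINK6 (2.44), which were above WT in LBD and below it in SUN2KO. It also held for PZP (-5.06), MYLK3 (-3.57), WISP2 (-1.78) and ALPP (-1.71), which were below WT in LBD and above it in SUN2KO. The LBD minus SUN2KO difference is itself the test, by edgeR's quasi-likelihood test. For that difference all 7 kept call and direction in the 13 other settings run gene by gene. These leave out the 2-fold limit and the fits with knockout libraries not shared. The calls of single genes against WT were not followed in those settings, so standing on opposite sides of WT was not checked there.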

How the results depend on the processing

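Leaving out 1 library of LBD, SUN2KO or WT gave 884 to 1690 genes called between LBD and SUN2KO (442 to 884 higher, 428 to 826 lower). It gave 330 to 536 returned, 111 to 219 further and 357 to 958 new, and 0.14 to 0.39 for SUN2. A lone library is then assumed to vary like the other groups. With a 2-fold limit there were 290 genes called between LBD and SUN2KO (191 higher, 99 lower), 630 between SUN2KO and WT and 813 between LBD and WT, with 75 returned, 18 further and 197 new. DESeq2 gave 628 lower, 467 returned and 184 further. With knockout libraries not shared there were 305 or 324 returned, 127 or 160 further, and 455 new in the first setting. SUN2 passed the threshold with library size alone (0.29), median-ratio factors (0.27), unfiltered genes (0.26), the 5 CPM filter (0.27) and 6 libraries (0.26). It did not pass with DESeq2 (0.27, DESeq2 adjusted p = 0.109).

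With the replicate number as a block SUN2 also passed (0.26, adjusted p = 0.0384, edgeR), and 17 rather than 9 hypoxia genes were higher. The numbers do not pair the libraries: differences between replicates correlated at 0.05 for LBD with SUN2KO and -0.01 for SUN2KO with WT.

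Of 119 named genes, 80 kept call and direction in the 13 settings run gene by gene and 38 lost the call or changed sign in some. The 2-fold limit and the fits with knockout libraries not shared were run for counts only. CKB (-0.092 to 0.031 with 1 library left out, positive without LBD replicate 1) and LIN28B (-0.43 to 0.18, positive without SUN2KO replicate 2), neither called, changed sign. With 2 libraries a group, some changes of 1.5-fold and 2-fold were missed in simulation, so a missing call is no sign of equal levels.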

Other observations

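LIN28B, a marker of the other line grown in the study, HEK293T, had 0 counts in the WT libraries, 23 over the LBD libraries and 28 over those of SUN2KO. With the WT count set to a floor of 3 over the group, the scaled ratio to WT was 7.76 in LBD and 8.66 in SUN2KO. Without that floor, the counting interval of the ratio began at 5.82 in LBD and at 6.59 in SUN2KO, with no upper limit. The intervals cover counting error only. The 4 tested members of that marker list, CKB among them (307 and 334 CPM in LBD, 323 and 332 CPM in SUN2KO, 316 and 338 CPM in WT), did not pass between LBD and SUN2KO. Against WT, 1 of the 4 was higher and 1 lower in LBD, and the same counts held in SUN2KO. TUBB2B, also on that list, went down, with 5.26 and 5.02 CPM in LBD, 5.14 and 5.53 CPM in SUN2KO, and 9.21 and 8.92 CPM in WT. LIN28A, PAX2, NEFM and NEFL were at most 0.176 CPM in the 8 libraries. STMN2 and GPC3 were at 0 in all 8 libraries.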
